A study of Homo sapiens with 4 samples.

Results

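The iRIP-seq experiment mapped the RNA bound by IGF2BP2, an RNA-binding protein that reads the m6A mark on mRNA, in Jurkat, an established line of human T-ALL cells. The method crosslinks the protein to RNA with UV light, immunoprecipitates it and sequences the RNA that comes with it. The series holds 2 libraries made with an anti-IGF2BP2 antibody, here called libraries 1 and 2, and 2 input libraries, all from Jurkat cells without a stated treatment or genetic change. Only the peak lists of libraries 1 and 2 were used, and the inputs were not analysed here. The subject is a set of 9 genes of the PI3K, AKT and mTOR pathway, *PIK3CD*, *PIK3R1*, *INPP5D*, *AKT1*, *AKT2*, *TSC1*, *TSC2*, *MTOR* and *RPTOR*, out of 20428 gene identifiers with a sense peak in either list. Members were found by their Ensembl identifier, and coordinates are those of GRCh38, counted from 1. A peak was a sense peak of a gene when the largest share of its length lay in CDS, UTR, noncoding exon or intron of that gene. The 9 genes held 144 of 74237 sense peaks in library 1 and 180 of 77288 in library 2.

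Class I PI3K joins a catalytic subunit to a regulatory subunit and makes the membrane lipid PIP3, which recruits AKT. AKT phosphorylates TSC2, the active part of the TSC1-TSC2 complex that restrains RHEB, and RHEB in turn activates mTORC1, the complex of MTOR and RPTOR that promotes translation. The pathway is often active in T-ALL, Jurkat cells are known to lack the SHIP1 protein, and IGF2BP2 is itself a known substrate of mTOR.

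The height of a peak is given in tags, the signal deposited by the authors. Its lowest value was 4 tags in library 1 and 5 tags in library 2, and its highest over all peaks was 91 and 191 tags. The read depth of the libraries is unknown, so heights were not adjusted for it, and how many peaks a gene had was not set against the amount of its RNA, in which fewer cells with an RNA and less of it per cell cannot be told apart. With an unknown depth and 2 libraries that the labels do not tie to separate cultures, differences between the libraries are given as values without a test. Of 10 T-lineage marker genes, 9 had sense peaks in both libraries, among them *CD3E*, *LCK* and *ZAP70*. *CD28* had peaks in library 2 alone. Of 10 markers of B, myeloid and erythroid cells, *PAX5* and *CSF1R* had peaks in both libraries.

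IGF2BP2 peaks were present on 8 of the 9 genes in both libraries, and *PIK3CD* was the gene without a peak in library 2. Among all 20037 protein-coding genes of the RefSeq table the share with a sense peak in both libraries was 41.6%, and among the 9134 genes within the length range of the members, 26.4 to 422 kb, it was 61.4%. Both libraries had peaks with a height of 10 tags or more on *AKT2*, *TSC2* and *RPTOR*, 3 of 9 members, against 4.12% of the genes of that length range. The count followed library 1, which had such peaks on the same 3 genes, whereas library 2 had them on 7, with *PIK3R1*, *INPP5D*, *AKT1* and *MTOR* in addition. On *RPTOR* the peaks of that height lay at different places in the libraries. Peaks that overlapped between the libraries by at least 1 bp on the same strand were found on 7 of the 8 members with peaks in both. Among genes of that length range with peaks in both libraries 29.7% had one. The median member had 14 peaks in library 1 and 20 in library 2, and the median gene of the length range had 2 in each. The members were chosen with earlier results of these data known. The paper names *AKT1*, *AKT2* and *MTOR* among genes common to its iRIP replicates and its RNA-seq. The counts of members given here were therefore partly set by that choice.

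**Figure D1:**
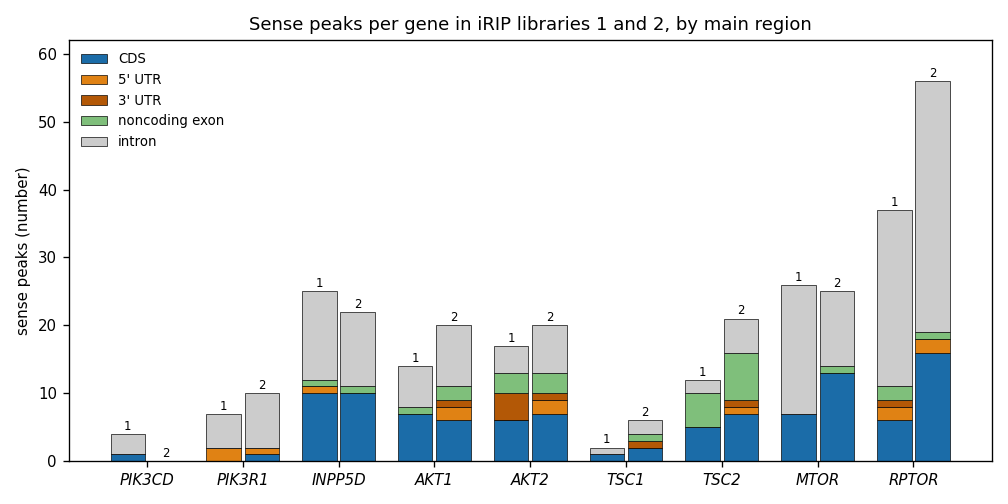
Number of sense peaks on each of the 9 genes (vertical axis), with 1 bar for each iRIP library (1 and 2, marked above the bars) and colours for the main region of the peak. *RPTOR* had the most peaks, 37 and 56, *TSC1* had 2 and 6, and *PIK3CD* had 4 in library 1 and none in library 2.

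Among the PI3K subunits and the lipid phosphatase, *INPP5D* carried the most peaks. *PIK3CD* (ENSG00000171608.16, chr1:9627258-9729114, plus strand) encodes p110 delta, the catalytic subunit that prevails in lymphocytes. It had 4 sense peaks in library 1, of 4, 6, 4 and 4 tags, and none in library 2. The highest, at chr1:9686601-9686650, lay in an intron, and the peak at chr1:9716951-9717000 had a share of 0.84 of its length in CDS. Within the whole *PIK3CD* gene interval library 2 held a single peak, on the opposite strand. Of 2003 other protein-coding genes in the same one of 10 length groups, 56.2% had fewer peaks than *PIK3CD* in library 1, so its number was close to that of the median gene, 3.

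*PIK3R1* (ENSG00000145675.15, chr5:68215756-68301821, plus strand) encodes p85 alpha, the regulatory subunit that stabilises the catalytic one and binds phosphotyrosine. It had 7 peaks of 4 to 7 tags in library 1 and 10 peaks of 5 to 16 tags in library 2. The highest peak was the same interval in both libraries, chr5:68226251-68226300, with 7 and 16 tags, of which a share of 0.22 was 5′ UTR and the rest intron. A second shared site lay at the very 5′ end of the gene, where a peak at chr5:68215801-68215900 had 5 tags in library 1 and a peak at chr5:68215751-68215850 had 11 tags in library 2. In all, 4 peaks of each library were overlapped by the other. A further peak of 11 tags at chr5:68297401-68297450, mainly in CDS, was found in library 2 alone. In its length group 78.0% and 85.8% of the genes had fewer peaks.

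*INPP5D* (ENSG00000168918.14, chr2:233060342-233207903, plus strand) encodes SHIP1, a phosphatase that converts PIP3. It had 25 peaks of 4 to 9 tags in library 1 and 22 peaks of 5 to 12 tags in library 2, and 10 of them in each library lay mainly in CDS. In its length group 97.1% and 95.4% of the genes had fewer peaks. The shared peak with the greatest height was at chr2:233204101-233204150, with 8 and 12 tags and its length split evenly between CDS and intron. The site at chr2:233198151-233198200, wholly in CDS, had 5 and 10 tags. All 6 shared sites touched CDS. The highest peak of library 1, 9 tags at chr2:233139801-233139850 with a CDS share of 0.18, was not overlapped in library 2.

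For 3 members a 5′ UTR peak lay partly within the promoter sequences of RefSeq (GRCh38.p14), which reach 50 bases into the transcript. From each, 30 transcribed bases under the peak are shown, with the motif GGAN, which includes the m6A core GGAC, in capitals. They cover chr5:68215756-68215785, chr2:233060351-233060380 and chr16:2048001-2048030, each on the plus strand and read 5′ to 3′. The peak over the *PIK3R1* bases had 11 tags in library 2, that over the *INPP5D* bases 4.5 tags in library 1 and that over the *TSC2* bases 5 tags in library 2, the last 2 without an overlapping peak in the other library. The library 1 peak that overlaps the *PIK3R1* peak starts at chr5:68215801, past the bases shown, so these too lay under a peak of library 2 alone.
PIK3R1: gtcgccagcagctGGAGcGGAGttGGAGga
INPP5D: ggtggcagcagccgaggccaccaagaggca
TSC2: cggggccaggggggtgcgcctttctccgcg
The 30 bases of *PIK3R1*, the first of its transcript, held GGAN 3 times on the transcribed strand. The stretches of *INPP5D* and *TSC2* held none, and GGAC was in none of the 3. Over all 35116 promoter entries the first 30 transcribed bases held GGAN in 46.5% and GGAC in 11.0%. The *INPP5D* and *TSC2* stretches start further into the transcript, so these shares match the *PIK3R1* stretch only. The rest of each peak was not read.

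The AKT kinases had the densest peaks together with *TSC2*. *AKT1* (ENSG00000142208.18, chr14:104769349-104795748, minus strand), the most widely expressed AKT kinase, had 14 peaks in library 1, of 4 to 9 tags with a median of 7, and 20 peaks in library 2, of 5 to 24 tags with a median of 6. Per length this was 5.3 and 7.58 peaks per 10 kb of gene, the highest of the 9 members in both libraries. The median gene of the length range had 0.257 and 0.223. In its length group 96.3% and 97.5% of the genes had fewer peaks than *AKT1*.

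Of the *AKT1* peaks, 8 of each library overlapped, all of them at identical intervals, and 7 of the 8 touched CDS and lay past the middle of the gene towards its 3′ end. At chr14:104776651-104776700, with a CDS share of 0.84, the height was 7 tags in library 1 and 24 tags in library 2, the highest of any member. The neighbouring peaks at chr14:104775051-104775100 and at chr14:104774901-104774950 had 6 and 20 tags and 8 and 19 tags. The peak at chr14:104773451-104773500, with a CDS share of 0.92, had 9 and 8 tags. These sites were thus found in both libraries, with heights that were close at one and at least 2 times apart at the others.

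*AKT2* (ENSG00000105221.18, chr19:40230317-40285345, minus strand), the AKT kinase linked most to insulin signalling, had 17 peaks of 4 to 10 tags in library 1 and 20 peaks of 5 to 13 tags in library 2, or 3.09 and 3.63 per 10 kb. Library 1 placed 4 of them in the 3′ UTR, against 1 in library 2. The 5 shared sites all touched CDS and lay past the middle of the gene towards its 3′ end. The first of these, chr19:40235251-40235300, with a CDS share of 0.76, had 10 and 11 tags and was one of 3 sites of all members with at least 10 tags in both libraries at the same place. The peak at chr19:40241901-40241950 had 8 and 13 tags, and the peaks over chr19:40255151-40255200 had 7 and 12.5 tags. In its length group 96.8% and 96.7% of the genes had fewer peaks.

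The 2 genes of the TSC complex differed in their peaks. *TSC1* (ENSG00000165699.15, chr9:132891349-132945378, minus strand) encodes hamartin, which stabilises TSC2. It had 2 peaks of 4 tags in library 1 and 6 peaks of 5 to 9 tags in library 2, the highest at chr9:132912251-132912300. None of its peaks was overlapped by the other library, so *TSC1* had peaks in both libraries but no shared site. In its length group 46.6% of the genes had fewer peaks than *TSC1* in library 1, where the median gene had 2 as well, and 82.7% had fewer in library 2. *TSC2* (ENSG00000103197.18, chr16:2047985-2089491, plus strand) encodes tuberin, the GTPase-activating subunit. It had 12 peaks of 4 to 10 tags in library 1 and 21 peaks of 5 to 14 tags in library 2, with 10 and 18 of them touching CDS, and 95.6% and 97.3% of its length group had fewer. The genes are of similar length, 54 kb for *TSC1* and 41.5 kb for *TSC2*, and the density was 0.37 and 1.11 peaks per 10 kb on *TSC1* against 2.89 and 5.06 on *TSC2*.

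Near the 3′ end of *TSC2*, a peak wholly in CDS at chr16:2084951-2085000 had 10 and 12 tags, and a peak at chr16:2085201-2085250, split between CDS and noncoding exon, had 10 tags in both libraries. These 2 and the *AKT2* site were the shared sites of at least 10 tags in both libraries. The highest *TSC2* peak of library 2, 14 tags at chr16:2056601-2056650 with a CDS share of 0.14, had no counterpart in library 1. The RefSeq interval of *TSC2* meets that of *PKD1*, and no peak of another gene identifier lay on the sense strand within the *TSC2* interval. That count does not cover a gene on the opposite strand, where the interval held 3 peaks in library 1 and 2 in library 2, all assigned as antisense.

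The genes of mTORC1 are the longest of the set, and on *RPTOR* introns held most of the peaks. *MTOR* (ENSG00000198793.13, chr1:11106535-11262551, minus strand), the kinase, had 26 peaks in library 1, of 4 to 7 tags, and 25 in library 2, of 5 to 13 tags. In library 1, 7 lay mainly in CDS and 19 in introns. In library 2 the numbers were 13 and 11. The libraries had 5 sites in common. The highest of them, chr1:11204551-11204600 with a CDS share of 0.80, had 6 and 11 tags. Another lay 0.101 kb from the 5′ end of the gene, at chr1:11262401-11262450 across the edge of a 5′ UTR exon, with 5 and 8 tags. The highest peaks of each library, 7 tags at chr1:11237851-11237900 and 13 tags at chr1:11247801-11247850, both mainly in CDS, were not shared. In its length group 93.6% and 93.5% of the genes had fewer peaks.

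*RPTOR* (ENSG00000141564.15, chr17:80544838-80966368, plus strand) encodes raptor, the subunit of mTORC1 that brings substrates to the kinase. It had the most peaks, 37 of 4 to 11 tags in library 1 and 56 of 5 to 12 tags in library 2, but over a gene of 422 kb, which gave 0.878 and 1.33 per 10 kb. Of the genes in its length group 96.6% and 98.5% had fewer peaks. Wholly intronic peaks made up 22 and 34 of them, of which 20 and 28 stood at the lowest height of their list and none was overlapped by the other library. Of the 10 and 19 *RPTOR* peaks that touched CDS, 8 in each library were overlapped by the other. The shared site with the greatest lower height, chr17:80754001-80754050 with a CDS share of 0.82, had 9 and 8 tags, and that at chr17:80823051-80823100 had 11 and 7 tags. A peak of 12 tags at chr17:80707801-80707850 was found in library 2 alone.

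**Figure D2:**
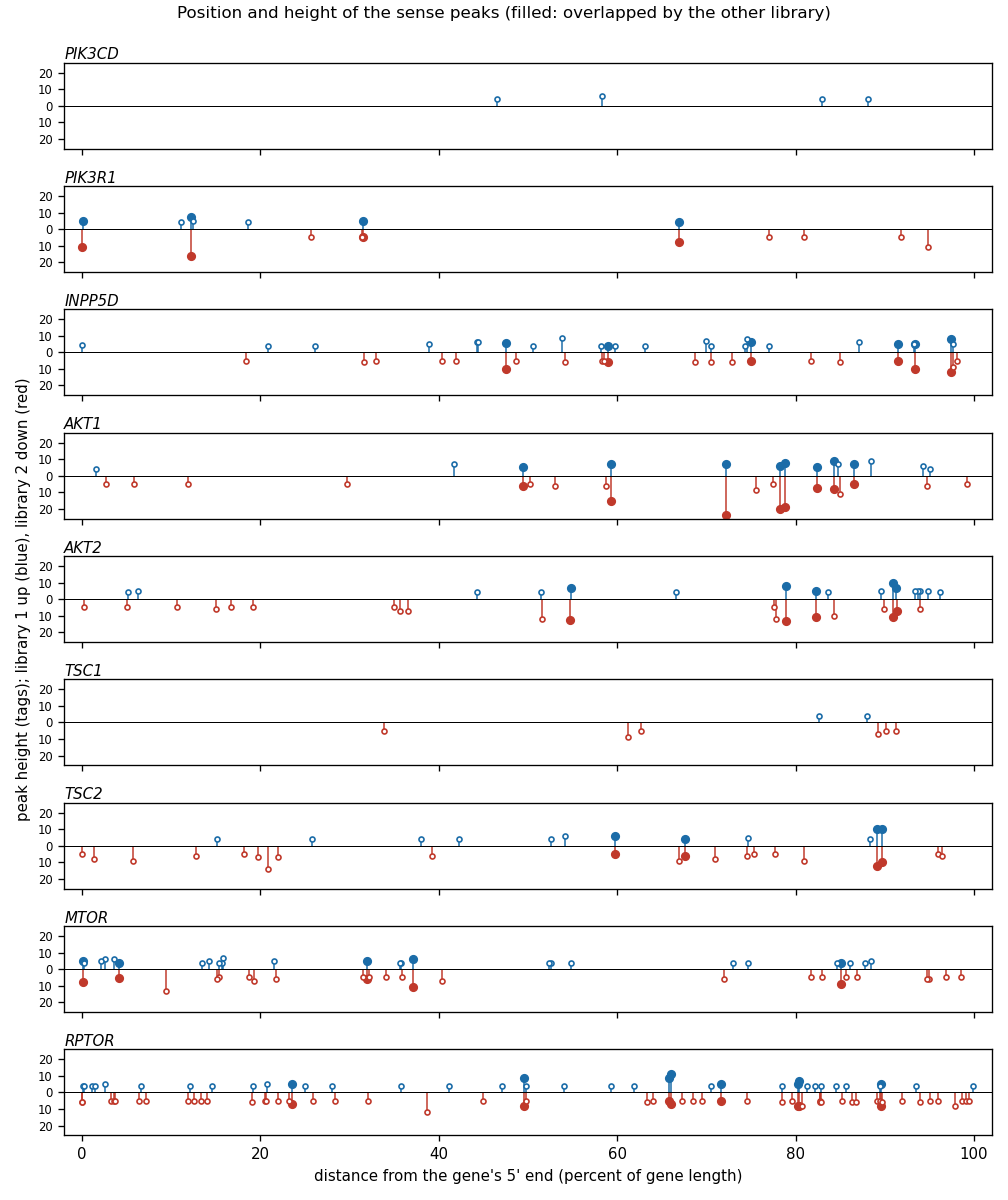
Position of each sense peak along its gene, as a percent of the gene length from the 5′ end (horizontal axis), and its height in tags (vertical axis, library 1 upwards in blue and library 2 downwards in red), with filled points where a peak of the other library overlapped. Most shared sites of *AKT1*, *AKT2*, *INPP5D*, *TSC2* and *RPTOR* lie past the middle of the gene towards the 3′ end. *PIK3R1* and *MTOR* have a shared site at the 5′ end, and *TSC1* and *PIK3CD* have no shared site.

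Over the 9 genes, 43 of 144 peaks in library 1 lay mainly in CDS (29.9%, 95% Wilson interval 23% to 37.8%) and 62 of 180 in library 2 (34.4%, 27.9% to 41.6%), a mean of 32.2% ± 3.24 (SD, n = 2). Over all sense peaks the shares were 19.9% and 25.6%, a mean of 22.7% ± 4 (SD, n = 2), and these include genes without CDS. Over the peaks of genes named as protein-coding they were 25.5% and 31.0%, within the intervals of the members. The intervals cover counting error only, and peaks of a gene share its RNA and are not independent. Introns held 54.9% and 50% of the members' peaks, noncoding exons 8.33% and 8.89%, 5′ UTRs 3.47% and 4.44% and 3′ UTRs 3.47% and 2.22%. On the named protein-coding genes introns held 63.5% and 57.0%, noncoding exons 3.20% and 3.38%, 5′ UTRs 3.40% and 3.91% and 3′ UTRs 4.47% and 4.67%. A peak split evenly was counted in the region listed first. A share of CDS of any size was present in 50% and 53.9% of the members' peaks, against 35.1% and 43.0% on the named protein-coding genes and 27.5% and 35.5% of all sense peaks. Many of these, 43 and 64 peaks, held both CDS and intron.

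Peaks with CDS were higher and recurred more often between the libraries than wholly intronic ones. On the 9 genes 72 peaks of library 1 and 97 of library 2 touched CDS, with a median of 5 and 6 tags, and 35 of them in each library were overlapped by the other, or 48.6% and 36.1%. Of 56 and 62 wholly intronic peaks, 47 and 49 stood at the lowest height of the list and 2 in each library were overlapped, on *AKT1* and *PIK3R1*. None of the wholly intronic peaks reached more than 7 tags. All sense peaks showed the same order, with 46.8% and 34.6% of those with CDS and 2.91% and 3.22% of the wholly intronic ones overlapped. Taking every class, 27.8% (21.1% to 35.6%) of the members' peaks in library 1 and 22.2% (16.8% to 28.8%) in library 2 were overlapped, against 16.6% and 15.8% of all sense peaks. On the named protein-coding genes the shares were 20.4% and 18.5%, of which the first was just under the interval of the members and the second within it.

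The 40 overlapping pairs were 8 on *AKT1*, 8 on *RPTOR*, 6 on *INPP5D*, 5 on *AKT2*, 5 on *MTOR*, 4 on *TSC2* and 4 on *PIK3R1*. In 35 pairs at least 1 of the peaks touched CDS, and 29 lay past the middle of the gene towards its 3′ end. The same share was not computed for unshared peaks or for other genes. The height was greater in library 2 in 29 pairs, greater in library 1 in 7 and equal in 4. Among pairs with identical intervals library 2 was the higher in 22 of 33 (66.7%, 49.6% to 80.2%) on the members and in 77.2% of 8370 over all sense peaks. The lowest listed height was 4 tags in library 1 and 5 tags in library 2. A pair with less than 5 tags in library 1 was therefore bound to be higher in library 2, which sets part of all these counts. On *RPTOR* the pairs were divided, with 4 higher in library 2, 3 higher in library 1 and 1 equal.

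**Figure D3:**
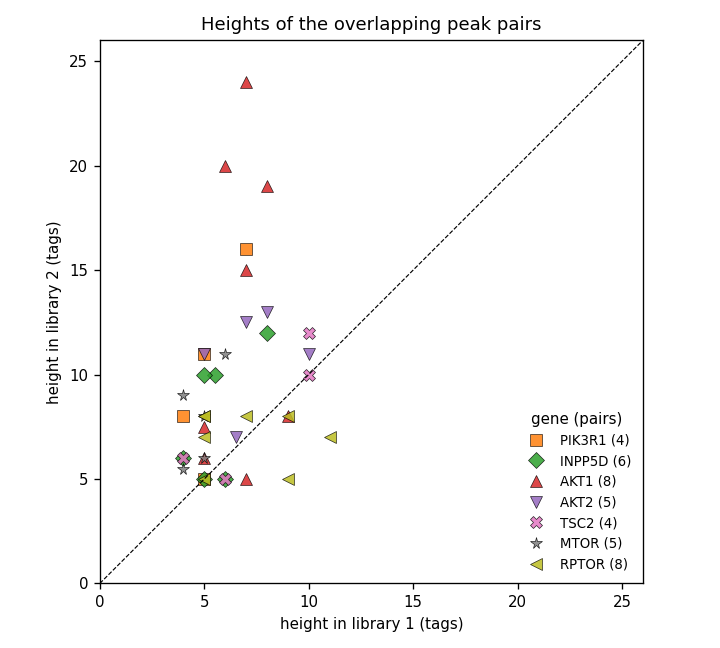
Height in tags of the 40 overlapping peak pairs in library 1 (horizontal axis) and library 2 (vertical axis), with a symbol for each gene, its number of pairs in the legend and a dashed line of equal height; points with the same values lie on each other. *AKT1* pairs reach 24 tags in library 2 at 7 tags in library 1, and the *RPTOR* pairs lie on both sides of the line.

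A list of 61 other genes of the pathway was examined in the same way. Names were assigned by position, which worked for 48 of them, and for the other 13 no identifier could be named although peaks lay within the interval of each. Among them were *PIK3CG*, *RICTOR* and *LAMTOR1*. Sense peaks were found in both libraries on 42 of the 61 genes (68.9%), against 41.6% of all protein-coding genes and 61.4% of those of 26.4 to 422 kb. The 61 genes span 1.6 to 823 kb, and no share was computed for genes matched to them in length. In library 1 alone they were found on *FOXO4*, *NPRL2* and *TFEB*, and in library 2 alone on *PRKAA1*, *RRAGB* and *RRAGC*. The 48 named genes had a median of 4 and 4.5 peaks. By role, peaks in both libraries were present on 12 of 15 genes upstream of AKT, 4 of 5 phosphatases, 4 of 7 genes of AKT and its substrates, 5 of 7 genes of the mTOR complexes, 2 of 4 of the TSC arm, 8 of 15 of the amino acid arm and 7 of 8 mTORC1 substrates and outputs.

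Of the 42 genes with peaks in both libraries 19 had an overlapping site (45.2%), against 35.1% of all protein-coding genes with peaks in both. Of the 61 genes 4 (6.56%), *IGF1R*, *EIF4EBP2*, *RPS6* and *ULK1*, had a peak with a height of 10 tags or more in each library, against 3.71% of all protein-coding genes. Neither comparison was matched for gene length. On *EIF4EBP2* and *ULK1* the peaks of that height did not overlap. *RPS6*, a ribosomal protein whose phosphorylation reads out mTORC1 activity, had the highest shared site, with 12 and 23 tags mainly in the 5′ UTR. *IGF1R*, the IGF receptor upstream of PI3K, had 44 and 62 peaks and a shared CDS site of 10 and 11 tags. *ULK1*, the autophagy kinase that mTORC1 restrains, had 22 and 25 peaks and a best shared site of 8.5 and 9 tags. *INPP4A*, a phosphatase of the lipid that SHIP1 makes, had 32 and 63 peaks with a best shared site of 7 and 7 tags.

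The best shared sites of *EIF4EBP1*, which encodes a translation repressor that mTORC1 inactivates, of *LAMTOR2*, *NPRL3* and *FNIP1* also had a lower height of 7 tags. Among the other class I catalytic genes, *PIK3CA* had 6 and 13 peaks without a shared site, and *PIK3CB* had 9 and 6 with a shared intronic site of 6 and 5 tags.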

How the data were processed

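Jurkat iRIP libraries were sequenced as 150 bp read pairs. Per the methods, TopHat 2 aligned the reads, those with a unique position went on, and ABLIRC called peaks library by library against 500 simulations per gene at a p threshold of 0.05. Peaks that met input peaks were removed. The submitters' processing notes name GRCh38. The annotation release is not given in the sources used here. The deposited height is a signal in tags, the mean over the 50 nt bins of a longer peak. The p-value deposited by the authors was not used. Depth per library is unknown, so no detection limit is given.

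All 9 members were found by Ensembl identifier, and all their peaks lay in the RefSeq interval (GRCh38.p14) of the gene, with a margin of 1000 nt. Intervals were read as half-open, as the region shares in steps of 0.02 require, and starts were shifted by 1 to count from 1. Other identifiers were named by the single protein-coding gene holding at least 80% of their CDS and UTR peaks, or otherwise by the only gene holding all their peaks, which gave 11819 protein-coding names for 20428 identifiers. The table has no strand, and unnamed genes count as having no peak, which lowers the shares of all genes with a peak and raises the shares of genes with fewer peaks than a member. Peaks per kb of coding sequence were not computed, as coding lengths were not used here.

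The members, the other pathway genes and the markers were chosen with earlier results of these data known. Named were all members, with their highest and best shared peaks, and of the other pathway genes the 8 with the highest shared peak, ranked by the lower height, and those without a peak, which could not be told from the 13 unnamed ones, so a few of these are given as examples. Some items are not reported here. *PIK3CA*, *PIK3CB*, *EIF4EBP2* and the genes with peaks in 1 library were added after their values were seen. Shares have 95% Wilson intervals. Alternatives were minimum heights of 5, 8, 10 and 15 tags, peaks in exons, an overlap of 50% or more of the length, touching peaks, any CDS share, weighting by length and each library left out. Overlap and naming functions were tested on simulated data. The software was matplotlib 3.10.9, scipy 1.17.1, pandas 2.3.3 and numpy 2.4.6 under Python 3.11.15.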

Additional observations from a re-analysis of the deposited data

How the results depend on the processing

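The minimum height moved the most. At 10 tags or more in both lists, both libraries had a peak on 3 members and 4 other pathway genes, overlapping peaks were found on 2 members, the mean number of peaks per member and library fell from 18 to 1.56, and the CDS share rose to 54.2%. The overlapped share was then 75.0% of 4 peaks in library 1 and 12.5% of 24 in library 2. At 5 tags or more, the overlapped share of library 1 was 52.2% and the CDS share 38.9%. With 8 tags as the minimum of a high peak 5 members had one in both libraries, and with 15 tags 0 had. Counting any share of CDS gave 51.9%. Leaving out peaks at the lowest height of each list, chosen after seeing the data, gave overlapped shares of 41.2% and 31.1%. The higher minimum leaves fewer peaks by construction, and no other cause was tested.

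With each library left out in turn, 8 to 9 members and 45 other pathway genes had a peak, 3 to 7 members had a peak of at least 10 tags, and the CDS share was 29.9% to 34.4%. At 5 tags or more the number of peaks moved by more than 1.5 times on 8 of 9 members in library 1, and in library 2, whose lowest height is 5 tags, it could not change. At 10 tags or more it moved on 9 of 9 and 8 of 9. The overlap of at least 50% of the length, touching peaks and exonic peaks kept the other counts within 1.5 times and the shares within their intervals. No paired analysis was possible because the files used here hold values of the iRIP libraries alone, and those of the input libraries with the same replicate numbers were not analysed here.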

Other observations

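On the opposite strand of the 9 genes, peaks that the authors' lists assign as antisense to them numbered 29 in library 1 and 26 in library 2, or 16.8% (95% Wilson interval 11.9% to 23%) and 12.6% (8.76% to 17.9%) of the members' sense and antisense peaks together. Over all genes, which include genes without CDS, the antisense share was 28.1% and 23%. It was not computed for the named protein-coding genes alone. The highest antisense peak on a member had 5 tags in library 1 and 9 tags in library 2, the latter on *MTOR*, which had 4 and 8 antisense peaks. *RPTOR* had 12 and 9, and each of the other members had at most 4 in a library.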
